A study of Mus musculus with 8 samples.

Results

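The direct response genes of bone morphogenetic protein (BMP) signalling were compared between whole fetal ovaries with and without a germ cell deletion of the BMP receptor gene *Bmpr1a*. The set was given by name and comprised 9 of 25239 counted genes: the *Id* genes *Id1*, *Id2*, *Id3* and *Id4*, the feedback genes *Smad6*, *Smad7* and *Bambi*, and the *Msx* genes *Msx1* and *Msx2*. All 9 were among the 14249 genes that passed the filter on low counts and were tested. RNA-Seq had been performed on 8 pools of E14.5 ovaries from C57BL/6 mice, 4 control pools (*Bmpr1a* fl/fl) and 4 *Bmpr1a*-cKO pools (*Bmpr1a* fl/fl with 1 copy of *Oct4*-Cre, Cre/WT), each pool holding 2 ovary pairs, from 8 embryos of each genotype in 6 litters. Controls were littermates of the mutants. The dams had been given 1 mg of 4-hydroxytamoxifen and 0.5 mg of progesterone, first at 9.5, again at 10.5 and last at 11.5 dpc. Both genotypes therefore shared the drugs, and the controls carried the floxed alleles without Cre.

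BMP ligands bind a complex of type 1 and type 2 serine/threonine kinase receptors, of which BMPR1A is a type 1 member, and the active complex phosphorylates SMAD1, SMAD5 and SMAD9. These join SMAD4, enter the nucleus and bind DNA of target genes, among which the *Id* genes, the *Msx* homeobox genes and the inhibitory SMAD genes are the classical direct responders in many tissues. In the fetal ovary, the study treated BMP2 as a likely candidate for directing germ cell development, with *Bmp4* and *Bmp5* as possible contributors.

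The libraries held 8562961 to 15365052 counts, and 3 counts, taken as the floor of detection, corresponded to 0.189 to 0.358 CPM (a gene's counts scaled to the library's total by TMM) for counting error alone. The 4 controls held *Bmpr1a* itself at 199, 237, 220 and 216 CPM, against 185, 195, 190 and 209 CPM in the mutant libraries. The groups overlapped, and the log2 fold change of mutant over control (Log2FC) was -0.16 (SE 0.064, edgeR quasi-likelihood test, false discovery rate FDR = 0.0692). The reads were counted over the whole gene and the deleted exon was not examined separately, and *Oct4*-Cre acts in germ cells whereas the somatic cells of the ovary keep the receptor, so this value does not check the labels. Since the RNA came from whole ovaries, fewer cells of a type and less RNA per cell cannot be told apart for any gene below. The labels do not give the litter of each pool, and litter was not a term in any test.

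Promoter sequence of 6 of the 9 members was taken from RefSeq (GRCm38.p6, the mm10 build), 250 bases before to 50 bases after the annotated start, and entries were matched for *Id2*, *Id3*, *Id4*, *Smad6*, *Msx1* and *Msx2* but not for *Id1*, *Smad7* and *Bambi*. Those shown are the largest decreases (*Msx2* and *Msx1*), the *Id* genes with the largest and the smallest Log2FC among those matched (*Id4* and *Id2*), and *Smad6*, which carried a rare motif. Capitals mark GGCGCC or GGCGNC, GC-rich hexamers of the kind bound by SMAD1 and SMAD5, and GTCTAGAC, the palindrome bound by SMAD3 and SMAD4, on either strand. Bases are counted from -1 just before the start, and bases inside an exon of the GENCODE vM21 gene model were left out except for short matches.
Msx2 (chr13:53472859-53472882, minus strand, bases -102 to -79): GGCGTCaggagcagggccGTCGCC
Msx1 (chr5:37824583-37824835, minus strand, bases -250 to 3): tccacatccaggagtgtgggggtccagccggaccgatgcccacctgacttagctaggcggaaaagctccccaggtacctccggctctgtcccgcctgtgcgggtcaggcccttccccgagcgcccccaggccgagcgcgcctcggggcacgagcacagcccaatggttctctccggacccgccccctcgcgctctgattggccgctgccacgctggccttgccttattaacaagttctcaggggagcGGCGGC
Id4 (chr13:48260866-48261115, plus strand, bases -250 to -1): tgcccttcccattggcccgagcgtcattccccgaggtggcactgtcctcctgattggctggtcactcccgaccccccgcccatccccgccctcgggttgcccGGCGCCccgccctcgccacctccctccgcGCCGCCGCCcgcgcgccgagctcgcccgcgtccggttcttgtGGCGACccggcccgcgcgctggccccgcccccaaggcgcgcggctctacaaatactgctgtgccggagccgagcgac
Id2 (chr12:25096254-25096342, minus strand, bases -250 to -162): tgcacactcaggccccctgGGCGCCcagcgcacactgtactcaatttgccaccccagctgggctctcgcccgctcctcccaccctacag
Smad6 (chr9:64022056-64022309, minus strand, bases -250 to 4): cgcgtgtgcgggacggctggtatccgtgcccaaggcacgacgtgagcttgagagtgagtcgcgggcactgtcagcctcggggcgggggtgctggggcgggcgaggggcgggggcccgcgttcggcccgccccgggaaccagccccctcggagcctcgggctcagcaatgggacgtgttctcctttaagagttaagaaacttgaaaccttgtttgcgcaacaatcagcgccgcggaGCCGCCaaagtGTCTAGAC

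GGCGCC was found in 2 of the 6 promoters, those of *Id2* (bases -231 to -226) and *Id4* (bases -148 to -143), and in 11.9% of all 32851 promoters of the same length and 20.8% of the promoters of tested genes. Its looser form GGCGNC, of which GGCGCC is 1 case, was present in 6 of 6, with 4 matches in *Id4*, 2 each in *Id2* and *Msx2*, and 1 each in *Id3*, *Smad6* and *Msx1*. In the GENCODE vM21 gene model, exons cover all 250 bases before the start of *Id3* and *Msx2*, and 161 of those of *Id2*. The matches of *Id3* and *Msx2*, and the *Id2* match at bases -22 to -17, are exonic in that model. That hexamer occurred in 36.2% of all promoters and in 60.2% of the promoters of tested genes. *Smad6* alone among the 6 held GTCTAGAC, across its start (bases -4 to 4), a word present in 0.213% of all promoters and 0.272% of those of tested genes. There the hexamer on the minus strand (bases -15 to -10) ended 5 bases before GTCT. Neither composite searched, GGCGCC or GGCGNC followed on the same strand after 5 bases by GTCT, matched any of the 6 (0.0731% and 0.244% of all promoters, 0.105% and 0.433% of those of tested genes). GTCTGNCT and the E-box form CACGTG were not found in them (5.65% and 7.15% of all promoters, 5.20% and 9.71% of those of tested genes). The general E-box CANNTG, of which CACGTG is a case, was found once each in *Id2*, *Smad6*, *Msx1* and *Msx2* (72.3% of all promoters, 63.99% of those of tested genes). A match is a description of letters, and the promoters of *Id2*, which passed no threshold, and *Id4*, which did, both held GGCGCC.

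Each member had a lower mean in *Bmpr1a*-cKO than in control ovaries. Scaling libraries to their germ cell markers moved all genes upward together, to a median Log2FC of 0.089, and *Bambi* then had a Log2FC of 0.073, or -0.016 relative to that median. The size of the change ranged from 3.51-fold for *Msx2* to 1.03-fold for *Bambi*. A gene was called differentially expressed (DEG) where the FDR was below 0.05 and the absolute Log2FC above 0.5. Of the 9 members, 4 were lower DEGs (*Msx2*, *Msx1*, *Id1* and *Id4*) and 0 were higher DEGs, against a background of 4.06% of tested genes that were lower DEGs. By FDR alone 7 of 9 were lower, against 12.5% of tested genes, and in the same 7 all mutant libraries lay under the lowest control, against 11.7%. The median Log2FC of the members was -0.34 and that of all tested genes was -0.0042. Genes that were higher made up 60.1% of all DEGs, and 75.2% under germ cell marker scaling. Under that scaling 3 members (*Msx2*, *Msx1* and *Id1*) passed the FDR and were DEGs, while *Id3*, *Id4*, *Smad6* and *Smad7* did not pass it. Relative to the median of all genes, their Log2FC were -0.32, -0.54, -0.29 and -0.21 under it, against -0.34, -0.54, -0.31 and -0.23 with TMM, and their SE were 0.167 to 0.190, against 0.069 to 0.121.

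**Figure D1:**
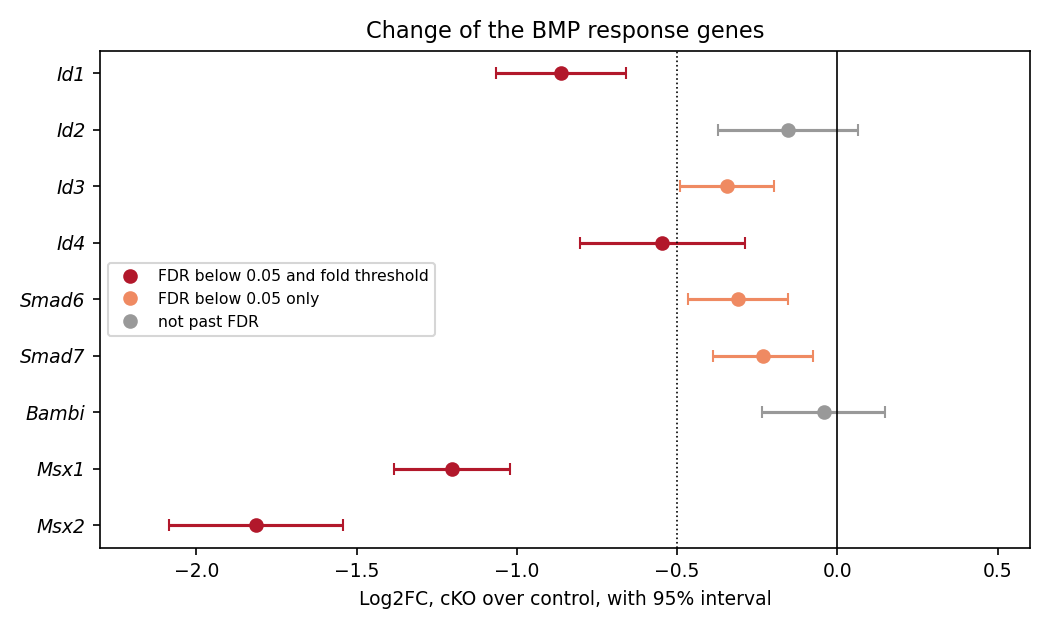
Log2FC of the 9 BMP response genes (*Bmpr1a*-cKO over control, log2 scale) with bars for the 95% interval of the edgeR fit over 4 libraries a group; the dotted line is the fold threshold of -0.5. The *Msx* genes and *Id1* lie wholly below the dotted line, while the intervals of *Id2* and *Bambi* cross 0.

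MSX1 and MSX2 are homeodomain transcription repressors that BMP signalling induces in limb, tooth and skull, and they were the members with the largest change. *Msx2* (chr13:53466884-53473074, minus strand) measured 18.6, 17.7, 19.2 and 15.8 CPM across the controls, against 4.89, 4.02, 5.76 and 5.59 CPM across the mutant pools. All *Bmpr1a*-cKO libraries lay far under the lowest control, and the gap between the groups was 10.02 CPM. The mean fell from 17.8 ± 1.49 to 5.06 ± 0.794 CPM (SD, n = 4), to 28.5% of control (95% interval 23.6% to 34.3%), with a Log2FC of -1.81 (SE 0.127, edgeR, FDR = 1.54e-07). Its lowest count was 41, well above the floor of 3 counts. By Log2FC it was the gene at position 34 from the lowest of the 14249.

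*Msx1* (chr5:37820485-37824583, minus strand) measured 64.2, 66.2, 75.8 and 58.8 CPM across the controls, against 31.2, 27.6, 29.9 and 26.8 CPM across the mutant pools. The groups were again well apart, with control library 3 the highest for both *Msx* genes. The mean fell from 66.3 ± 7.07 to 28.9 ± 2.05 CPM, to 43.5% of control (38.4% to 49.3%), with a Log2FC of -1.20 (SE 0.085, edgeR, FDR = 1.68e-07). In CPM *Msx1* lost more than *Msx2*, 37.4 against 12.8 CPM, and its Log2FC was the smaller. The log2 ratio of *Msx1* to *Msx2* was 1.78, 1.89, 1.97 and 1.89 in control and 2.64, 2.73, 2.35 and 2.23 in *Bmpr1a*-cKO libraries. It was higher by 0.60 in the mutants without overlap (two-sided exact permutation test, p = 0.0286, which is the lowest value 4 against 4 can give, and 0.0571 after Benjamini-Hochberg adjustment over 10 ratios).

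ID proteins lack a DNA-binding domain and hold E proteins away from DNA, and the Log2FC of their 4 genes ran from -0.86 to -0.15. *Id1* (chr2:152736251-152737410, plus strand) measured 61.7, 57.8, 61.7 and 47.3 CPM across the controls, against 30.9, 27.4, 34.0 and 33.2 CPM across the mutant pools. Control library 4 was the lowest control yet stood 13.3 CPM above the highest mutant library. The mean fell from 57.1 ± 6.79 to 31.4 ± 2.94 CPM, to 55.0% of control (47.8% to 63.2%), with a Log2FC of -0.86 (SE 0.095, edgeR, FDR = 9.78e-06).

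*Id4* (chr13:48261228-48266026, plus strand), the least abundant of the family, measured 17.02, 18.95, 14.99 and 13.57 CPM across the controls, against 12.88, 10.34, 10.05 and 10.99 CPM across the mutant pools. The groups did not overlap, but only 0.692 CPM separated the lowest control from the highest mutant library. The Log2FC was -0.55 (SE 0.121, edgeR, FDR = 0.00328; 68.5% of control, 57.3% to 81.9%), close to the fold threshold, and without control library 2 it was -0.47, past the FDR but short of that threshold. Antisense genes *A330033J07Rik* and *Gm49291* overlap its exons by 82 and 171 bases on the opposite strand. *A330033J07Rik* held 1 to 3 counts a library, and the libraries were strand-specific, but the sources used here do not say which strand was counted, so reads of the overlapping bases cannot be assigned with certainty.

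*Id3* (chr4:136143497-136145755, plus strand), the highest member in CPM, measured 115, 111, 107 and 98.1 CPM across the controls, against 92.6, 79.3, 87.6 and 80.4 CPM across the mutant pools. All mutant libraries were below all controls, by a margin of 5.50 CPM. The mean fell from 108 ± 7.23 to 85.0 ± 6.27 CPM, to 78.8% of control (71.2% to 87.2%), and the Log2FC of -0.34 (SE 0.069, edgeR, FDR = 0.0016) passed the FDR but not the fold threshold.

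*Id2* (chr12:25093799-25097140, minus strand) measured 65.0, 74.4, 50.3 and 66.0 CPM across the controls, against 62.7, 56.0, 49.8 and 61.3 CPM across the mutant pools. The groups overlapped through control library 3, which was lower than all mutant libraries but 1. Its Log2FC of -0.15 (SE 0.103, edgeR, FDR = 0.288) had a 95% interval of -0.37 to 0.065, so a level between 77.2% and 105% of control was compatible with these libraries. Without control library 3 the Log2FC was -0.26 (edgeR, FDR = 0.0390), so the side of the FDR threshold rested on this 1 library.

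**Figure D2:**
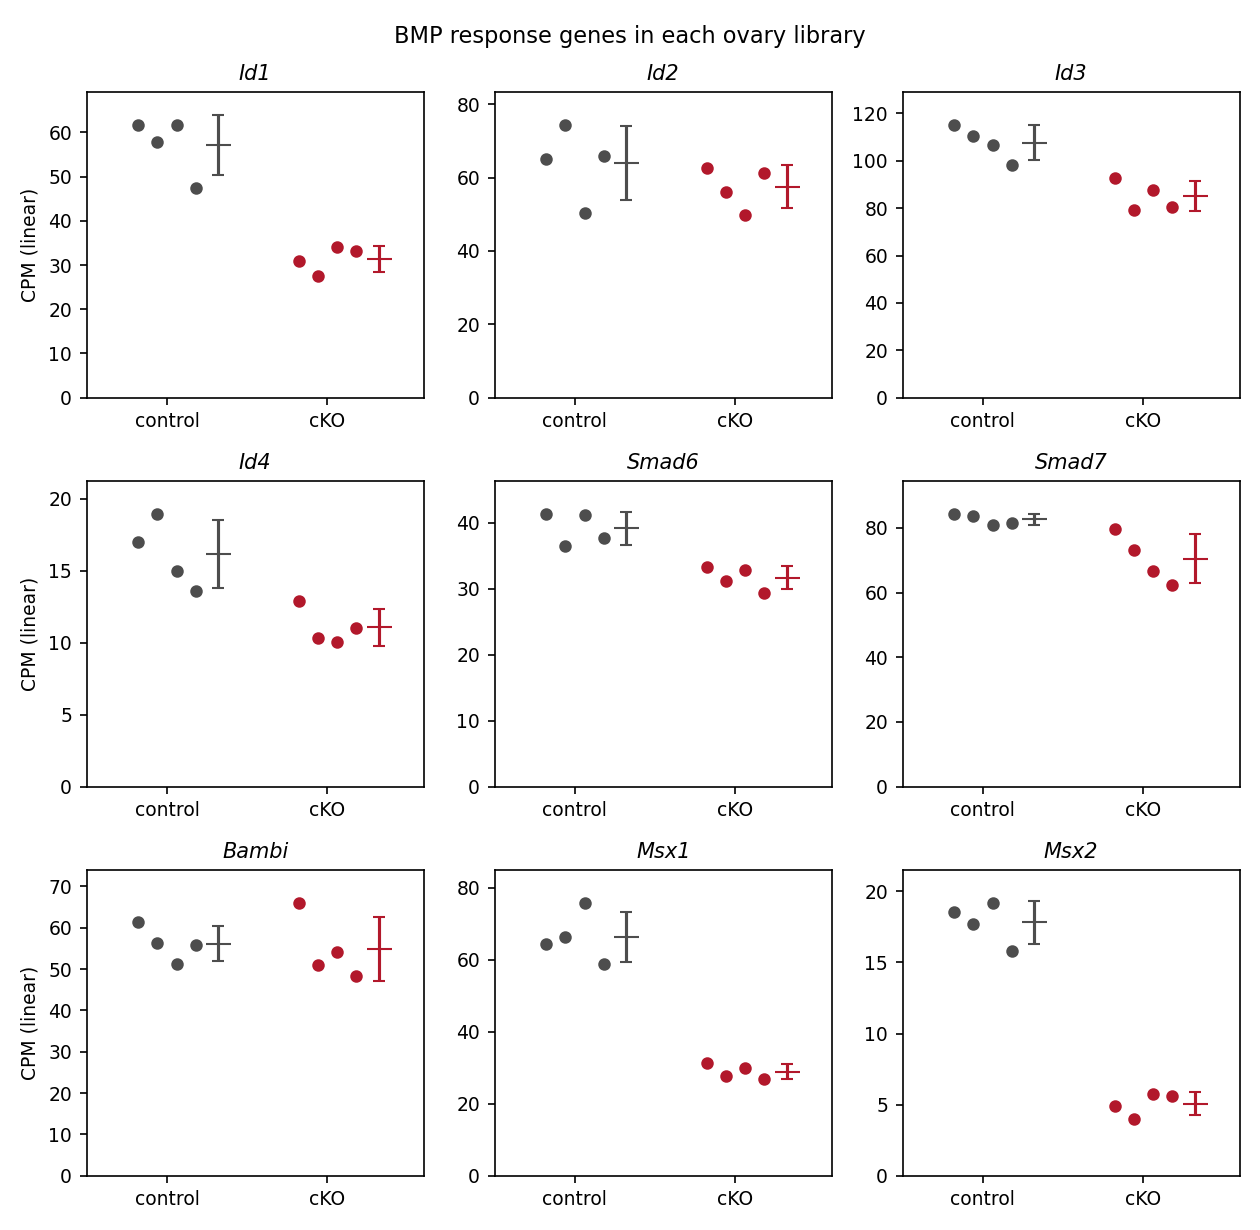
CPM of each member (linear axis from 0) in the 4 control and 4 *Bmpr1a*-cKO libraries, 1 point a library in replicate order, with the mean and SD beside them. The groups are apart for 7 genes, widely for *Id1*, *Msx1* and *Msx2*, and overlap for *Id2* and *Bambi*.

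Ratios of 2 members within a library, in which the scaling of the library nearly cancels, tested the difference between family members directly. The ratio of *Id1* to *Id2* was lower by 0.71 on the log2 scale and that of *Id1* to *Id3* by 0.52, each without overlap between the groups (exact permutation test, two-sided, p = 0.0286, adjusted 0.0571 for both). The ratio of *Id1* to *Id4* was lower by 0.33 and overlapped (p = 0.0571, exact permutation, adjusted 0.0714). That of *Id2* to *Id4* was higher by 0.39 without overlap (p = 0.0286, exact permutation, adjusted 0.0571), from between 1.74 and 2.27 in control to between 2.27 and 2.46 in mutant libraries, the nearest libraries being at 2.267 and 2.269. The ratios of *Id2* to *Id3* (difference 0.20, exact permutation p = 0.171) and of *Id3* to *Id4* (difference 0.19, exact permutation p = 0.0571) overlapped between the groups. Of the 10 ratios in the 3 families, 5 did not overlap between the genotypes and 0 were below 0.05 after adjustment. With 70 arrangements of 4 against 4, an adjusted p below 0.05 would have needed at least 6 of the 10 ratios at the smallest p.

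**Figure D3:**
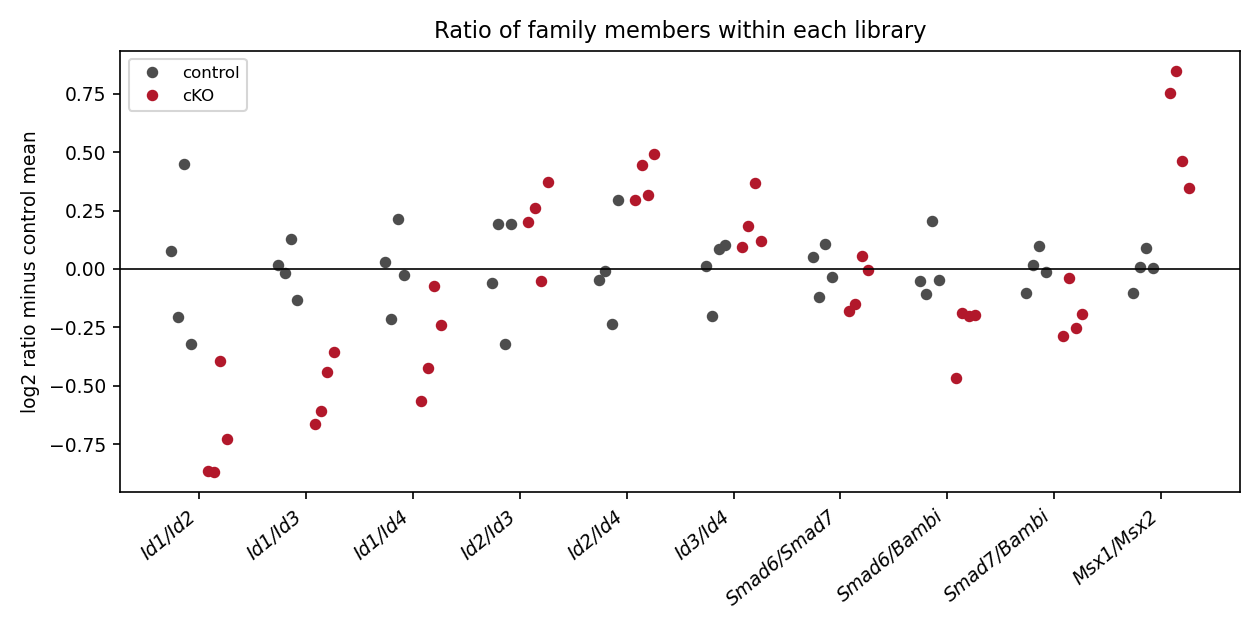
Log2 ratio of 2 members of a family in each library, with the control mean of the ratio subtracted (control in grey, *Bmpr1a*-cKO in red, 1 point a library). *Msx1*/*Msx2* lies higher and *Id1*/*Id2* and *Id1*/*Id3* lie lower in all mutant libraries, whereas *Smad6*/*Smad7* overlaps.

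*Smad6*, *Smad7* and *Bambi* encode inhibitors of the pathway that it induces itself: SMAD6 and SMAD7 are inhibitory SMADs that act at the receptors, and BAMBI is a receptor-like membrane protein without a kinase domain. *Smad6* (chr9:63953076-64022059, minus strand) measured 41.4, 36.4, 41.2 and 37.6 CPM across the controls, against 33.3, 31.2, 32.8 and 29.4 CPM across the mutant pools. No mutant library reached the lowest control, and the mean fell from 39.1 ± 2.52 to 31.7 ± 1.74 CPM, to 80.7% of control (72.4% to 89.9%). The Log2FC was -0.31 (SE 0.073, edgeR, FDR = 0.00504).

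*Smad7* (chr18:75367529-75395935, plus strand) measured 84.4, 83.7, 80.8 and 81.5 CPM across the controls, against 79.8, 73.2, 66.7 and 62.4 CPM across the mutant pools. The controls lay within a narrow range, the mutants were spread, and the groups were separated by 1.06 CPM. The Log2FC was -0.23 (SE 0.073, edgeR, FDR = 0.0256; 85.2% of control, 76.5% to 94.8%). It did not pass the FDR without control library 1 (FDR = 0.0649), without *Bmpr1a*-cKO library 3 (FDR = 0.0831) and without *Bmpr1a*-cKO library 4 (FDR = 0.0865, all edgeR).

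*Bambi* (chr18:3507923-3516404, plus strand) measured 61.5, 56.2, 51.2 and 55.8 CPM across the controls, against 66.1, 51.1, 54.0 and 48.4 CPM across the mutant pools. The highest and the lowest of the 8 libraries were both mutant. The Log2FC was -0.043 (SE 0.091, edgeR, FDR = 0.765), with a 95% interval of -0.24 to 0.15 or 84.9% to 111% of control, and it took the other sign without control library 1 or *Bmpr1a*-cKO library 4. The log2 ratio of *Smad6* to *Bambi* was lower by 0.26 in the mutants without overlap (exact permutation test, p = 0.0286, adjusted 0.0571). That of *Smad6* to *Smad7* differed by -0.070 and overlapped (exact permutation p = 0.40), and that of *Smad7* to *Bambi* by -0.19 (exact permutation p = 0.0571). Library 1 was the highest of the *Bmpr1a*-cKO libraries for 7 of the 9 members, and library 4 the lowest for 4.

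Added over a family, the *Id* genes went from 245 ± 18.3 to 185 ± 10.8 CPM, the *Msx* genes from 84.1 ± 8.37 to 34.0 ± 2.28 CPM and the feedback genes from 178 ± 6.32 to 157 ± 16.1 CPM. The *Id* and *Msx* sums were lower in every mutant library than in every control, whereas the feedback sum of *Bmpr1a*-cKO library 1 (179 CPM) was within the control range of 173 to 187 CPM. The median Log2FC was -1.51 over the *Msx* genes, -0.44 over the *Id* genes and -0.23 over the feedback genes.

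Levels of different genes were compared per kilobase of exon, as CPM per kb. In control ovaries *Id3* had the highest level at 60.1 ± 4.04 CPM per kb, followed by *Id1* (49.3 ± 5.85), *Id2* (26.2 ± 4.11), *Msx1* (21.4 ± 2.28), *Smad7* (18.3 ± 0.376), *Smad6* (12.2 ± 0.786), *Bambi* (11.1 ± 0.828), *Msx2* (5.43 ± 0.455) and *Id4* (4.19 ± 0.611). The libraries of *Id2* and *Msx1*, of *Smad6* and *Bambi*, and of *Msx2* and *Id4* overlapped, and those of other neighbours in that order did not. In *Bmpr1a*-cKO ovaries *Id3* remained first at 47.5 ± 3.50 CPM per kb, *Id1* (27.0 ± 2.53) overlapped with *Id2* (23.6 ± 2.40), and *Smad7* followed at 15.6 ± 1.68. *Msx1* dropped from position 4 to position 7 at 9.33 ± 0.662 CPM per kb, with libraries overlapping those of *Smad6* (9.88 ± 0.542), which in turn overlapped those of *Bambi* (10.8 ± 1.53). *Msx2* was last at 1.54 ± 0.242 CPM per kb, below *Id4* at 2.87 ± 0.330 without overlap. Among the 13960 tested genes with a known exon length, the control level of *Id3* was at percentile 97.2 and that of *Id4* at percentile 39.2.

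For each DEG among the members, the 3 genes with the most similar profile were sought among 11672 genes with a mean of at least 5 CPM, by the root mean square difference in log2 CPM over the 8 libraries, each gene taken relative to its control mean. The nearest to *Msx2* were *Gata2* (difference 0.146), *Dlx3* (0.220) and *Cubn* (0.233), and the nearest to *Msx1* were *Fgfr3* (0.112), *Lpin3* (0.156) and *Dusp5* (0.169). *Id1* was nearest to *Ddx25* (0.130), *Zfp235* (0.133) and *Hcn2* (0.138), and *Id4* to *Dpf1* (0.120), *Cenpv* (0.125) and *Zfp385b* (0.129). *Gata2*, a zinc finger transcription factor and itself a BMP response gene, measured 59.0, 67.0, 77.5 and 55.1 CPM across the controls, against 20.4, 17.4, 19.5 and 21.4 CPM across the mutant pools. Control library 3 was the highest, and since profile likeness chose the gene, its pattern is a description.

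The rest of the pathway was read from 7 lists with 75 genes in all, of which 57 were tested, and 8 of these were lower and 3 higher DEGs (10.2% of all tested genes were DEGs in either direction). Among 10 other tested BMP response genes, 5 were lower DEGs and 0 were higher, against 4.06% of all tested genes that were lower DEGs. The list was chosen with earlier results of these data known, among them the study's own report of lower *Zglp1*, so its count is a description. The 5 were the homeobox gene *Dlx3* (Log2FC -2.03), *Gata2* (-1.71), the heart and placenta regulator *Hand1* (-1.48), the germ cell BMP target *Zglp1* (-1.28) and *Gata3* (-0.56). *Dlx3* went from 15.8 ± 3.91 to 3.85 ± 0.721 CPM (edgeR, FDR = 1.81e-06) and *Zglp1* from 6.56 ± 1.94 to 2.67 ± 0.660 CPM (edgeR, FDR = 0.000726). *Hand1* was low, from 1.86 ± 0.859 to 0.674 ± 0.262 CPM (edgeR, FDR = 0.0113), and the libraries of *Gata3* overlapped (edgeR, FDR = 0.0192).

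Among 10 tested receptor genes 0 were DEGs by edgeR, DESeq2 or limma-voom (6 had an unadjusted p below 0.05 in edgeR). Of all tested genes, 10.2% were DEGs in either direction by edgeR, so a list of 10 with 0 is little below that share. By the edgeR FDR 3 receptor genes were higher, against 17.3% of all tested genes: *Acvr2b* (Log2FC 0.47), *Acvr1* (0.26) and *Acvr2a* (0.19). Of the signalling SMADs, *Smad1* had a Log2FC of 0.26 (edgeR, FDR = 0.0277), *Smad5* of -0.067 (FDR = 0.411), *Smad9* of -0.45 (FDR = 0.0387) and *Smad4* of 0.15 (FDR = 0.0552). Over the 11 SMADs and cofactors, 3 were higher and 3 lower by FDR (17.3% and 12.5% of all tested genes). Among them 0 were DEGs by any of the 3 tools, against the same 10.2% (8 were at an unadjusted p below 0.05 in edgeR). Of the 3 E protein genes whose products ID proteins bind, *Tcf12* was lower (Log2FC -0.24, edgeR, FDR = 0.00987), and *Tcf3* (0.032) and *Tcf4* (0.13) did not pass the FDR.

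Among 7 tested ligands, *Bmp7* was a higher DEG, from 23.9 ± 2.03 to 35.4 ± 5.48 CPM (Log2FC 0.58, edgeR, FDR = 0.000734), and *Bmp2* was lower by FDR alone, from 52.6 ± 2.24 to 41.6 ± 4.22 CPM (Log2FC -0.35, edgeR, FDR = 0.00307). Of 10 tested secreted antagonists 2 were lower DEGs, *Chrd* (Log2FC -0.80) and *Chrdl2* (-1.13). *Chrdl2* was low, from 1.40 ± 0.443 to 0.619 ± 0.0917 CPM (edgeR, FDR = 0.0138). Of all tested genes, 4.06% were lower DEGs and 10.2% were DEGs in either direction, the shares to set beside the counts of each list here. Of 6 tested genes that respond to SMAD2 and SMAD3, the other receptor SMAD branch, *Ccn2* was a lower DEG (Log2FC -0.67), and *Nodal* and its antagonist *Lefty1* were higher DEGs. *Nodal* was at 0.0822 to 0.375 CPM in control, around the floor of 3 counts, and at 1.04 to 1.91 CPM in *Bmpr1a*-cKO libraries. *Lefty1* was at 0.0937 to 0.493 CPM in control and at 1.26 to 2.30 CPM in mutant libraries, and the fitted folds of both rest on few control counts.

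**Figure D4:**
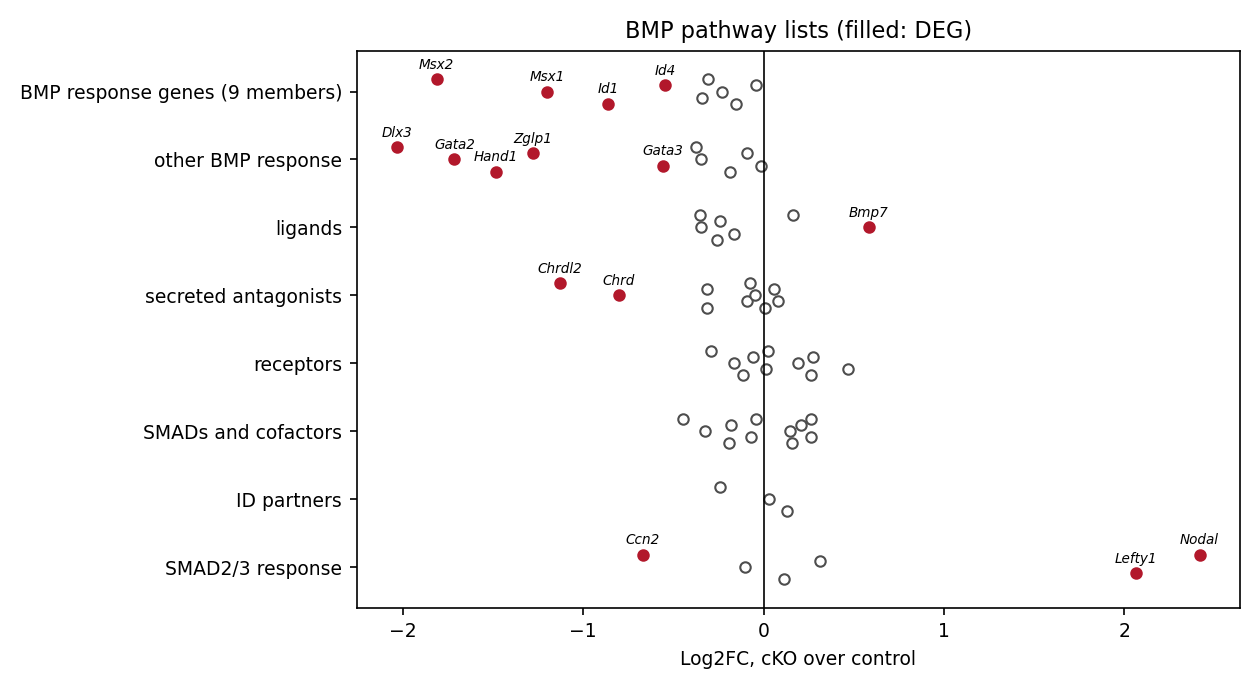
Log2FC (*Bmpr1a*-cKO over control) of the tested genes of each BMP pathway list, 1 point a gene, filled and named where the gene was a DEG; vertical shifts only separate points. The named members and 5 other BMP response genes lie to the left of 0, on lists chosen with earlier results of these data known. The receptors and SMADs hold no DEG (10.2% of all tested genes were DEGs), and the points of *Nodal* and *Lefty1* rest on few control counts.

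Markers of ovarian cell types moved in part with the members. Of 8 pregranulosa markers 7 were lower by FDR, against 12.5% of all tested genes. The only DEG among them was *Foxl2*, a gene of the granulosa lineage, with a Log2FC of -0.57. The marker sum was 1334 to 1603 CPM in control and 1129 to 1347 CPM in mutant libraries (median Log2FC of the list -0.35). The pregranulosa list shares *Bmp2* and *Fst* with the pathway lists. Summed mesonephros markers were at 130 to 161 CPM in control and 101 to 121 CPM in mutant libraries, and summed Sertoli markers at 21.6 to 25.0 and 17.6 to 20.2 CPM. Of the 5 and 6 tested genes of these lists, 1 each was lower by FDR, against the same 12.5%. In the mesonephros list this was *Emx2*, which made up most of the sum. *Emx2* was at 119 ± 13.8 CPM in control and 99.1 ± 6.94 CPM in mutant libraries, of mean sums of 139 and 115 CPM. Macrophage markers were higher, at 30.75 to 39.99 and 40.42 to 51.29 CPM, with 3 of 6 tested genes higher by FDR, against the 17.3% of all tested genes. By edgeR, DESeq2 and limma-voom alike, 0 of 8 endothelial (309 to 361 and 289 to 331 CPM) and 0 of 8 stromal markers (2898 to 3713 and 2778 to 3453 CPM) passed the FDR, with 1 and 0 at an unadjusted p below 0.05 in edgeR. The 9 germ cell markers summed to 754 to 997 and 742 to 1163 CPM, with means of 844 and 979 CPM. A large part of that sum was *Dazl*, itself a higher DEG, at 327 ± 45.3 CPM in control and 506 ± 95.1 CPM in mutant libraries. Of the 9 markers 2 were higher and 3 lower DEGs, against 10.2% of all tested genes that were DEGs in either direction. Among 3 tested erythroid markers 0 passed the FDR by edgeR, DESeq2 or limma-voom, or an unadjusted p below 0.05 (67.7 to 172 and 93.9 to 125 CPM). The part of these shifts in the decreases of the *Id*, *Msx* and inhibitory SMAD genes was not tested.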

How the data were processed

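Whole-ovary RNA of 4 control and 4 *Bmpr1a*-cKO pools had been sequenced. The libraries were strand-specific. The authors trimmed reads with Trimmomatic 0.39, checked them with FastQC 0.11.9, mapped them to mm10 and counted them per gene with STAR 2.5.2, and deposited unnormalized whole-number counts per gene symbol, 1 file a library. The annotation and which strand was counted are not given in the sources used here. A table of signal in CPM that the authors also deposited served only as an alternative gene filter.

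From the counts, genes were filtered with filterByExpr, scaled by TMM and tested for genotype with the two-sided quasi-likelihood F test of edgeR 4.0.16 in R 4.3.3 (14249 genes, Benjamini-Hochberg adjustment over all of them). A DEG had an FDR below 0.05 and an absolute Log2FC above 0.5, as in the study. A prior count of 2 was added for log2 CPM values. The fit was first tested on simulated counts with known changes. Values are means with the SD of 4 pools, which may share litters. Intervals are at 95%. Depth was 8562961 to 15365052 counts, and the floor of 3 counts covers counting error only. *Rn45s* held 13.1% to 16.7% of the counts. No pair of libraries of the same genotype agreed within sampling noise (lowest chi-square per degree of freedom 3.15). Pairs of a control and a mutant library were not compared in this way. Exon lengths and gene positions came from GENCODE vM21 (mm10).

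The genes given by name were the 9 members, the DEGs of the pathway lists, *Bmpr1a* and the signalling SMADs. For each DEG among the members, the 3 nearest profiles were also named. *Bmp2*, *Acvr1*, *Acvr2a*, *Acvr2b*, the E protein genes, *Foxl2*, *Emx2*, *Dazl* and the antisense genes were named after their values were seen. Of 75 listed pathway genes 73 matched a symbol in the files, and 1 of the others is an older symbol of *Ccn2*. Members and lists were chosen with earlier results of these data known. Alternatives were other tests (edgeR's likelihood ratio test, limma-voom 3.58.1, DESeq2 1.42.0), scalings, filters and thresholds, a replicate block, and each library left out.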

Additional observations from a re-analysis of the deposited data

How the results depend on the processing

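Of 180 refits of single members (20 alternatives for each of 9), 169 kept the direction and the side of the FDR threshold, among them all refits of *Msx1*, *Msx2* and *Id1*. Scaling to germ cell markers, 5 of which are DEGs themselves, moved the median of all genes to 0.089 and gave Log2FC of -0.24 for *Id3* (FDR = 0.471), -0.45 for *Id4* (FDR = 0.122), -0.21 for *Smad6* (FDR = 0.570), -0.12 for *Smad7* (FDR = 0.796) and 0.073 for *Bambi* (FDR = 0.884; -0.016 relative to that median). Under that scaling 3 members passed the FDR in place of 7, and the same 3 were DEGs. With no fold threshold 7 members, 24 pathway genes and 4242 genes in all were called, in place of 4, 11 and 1449. Leaving out 1 library at a time gave Log2FC of -0.26 to -0.085 for *Id2*, -0.29 to -0.18 for *Smad7* and -0.14 to 0.0092 for *Bambi*, all by edgeR. *Id4* was a DEG in 7 of these 8 refits, and *Id1*, *Msx1* and *Msx2* in 8 of 8. The causes were not tested.

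Whether replicate numbers pair the libraries could not be settled. Same-numbered libraries correlated at -0.087 to 0.198, above 0.1 in 3 of 4 pairs. The other combinations of a control and a mutant library correlated at -0.198 to 0.182, an overlapping range. With the replicate number as a block, 1457 genes and 4 members were DEGs, the Log2FC of *Id1* was -0.85 and no member's call changed. The lowest p of a ratio tested over such pairs was 0.125, the smallest that 4 pairs allow. The direction of all 10 ratios held in 100 of 100 refits. Those by replicate block could not differ, since a mean paired difference equals the unpaired one. The planned motif search from 1000 bases before to 100 after the start was not run, because genome sequence was not used here. Each member held at least 41 counts in every library, and 4 pools a group set the precision of the folds.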
